A study of Mus musculus with 84 samples.

Results

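Marker genes of oligodendrocytes, astrocytes and microglia were followed in nuclei that had been sorted for neurons. The genes were Mbp and Mog for oligodendrocytes, Gfap, Aqp4, Slc1a3 and Aldh1l1 for astrocytes, and Cx3cr1, Csf1r and P2ry12 for microglia. They are 9 of the 55401 gene IDs in the count files and were chosen by symbol as markers of these cells. Of these, 8 were among the 17941 genes with enough counts to test, and Gfap was not. RNA-seq libraries had been prepared from NeuN+ nuclei of the frontal cortex of 129S6/SvEvTac mice aged 12 weeks. The labels give no other genotype, and the treatment was either vehicle or a single injection of DOI, a psychedelic agonist of serotonin 2A receptors. There were 4 vehicle mice and 4 mice at each of 3 times after DOI (24 h, 48 h, 7 days), with 2 libraries per mouse that were summed, which makes 16 mice and 32 libraries. Each mouse is a separate animal, so the mouse was the replicate, and a mouse number shared between groups does not denote the same animal. Chromatin samples of the series, the NeuN- fraction and unsorted tissue were not analysed here, so the purity of the sort could not be expressed as a share of nuclei.

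NeuN, the product of Rbfox3, is an RNA-binding protein of most neuronal nuclei and is absent from glial nuclei, so a sort on NeuN is meant to leave glia behind. Oligodendrocytes wrap axons in myelin, astrocytes clear glutamate and buffer ions and water around synapses, and microglia are the resident immune cells of the brain. Nuclei hold newly made RNA, including unspliced RNA with introns, so nuclear counts follow transcription and nuclear retention more closely than the cytoplasmic mRNA. In bulk nuclei, fewer nuclei of a type and less RNA per nucleus cannot be told apart.

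Total counts per mouse ranged from 5834248 to 12354785, and a level of 3 counts corresponded to 0.254 to 0.502 CPM (counts scaled to a common library size with TMM factors). All 4 vehicle totals lay above all totals at 24 h and 48 h. On the first principal component of all tested genes (46.0% of the variance) the vehicle mice scored -94.6 to -69.0 and the 24 h and 48 h mice 22.0 to 66.2. At 7 days mice 1 and 3 scored -87.5 and -82.9, and mice 2 and 4 scored 52.1 and 64.8. An 18S ribosomal RNA feature (CT010467.1) divided the mice in the same way, with 63.4 to 110.0 CPM in the vehicle mice and in 7 days mice 1 and 3, and 3258 to 16124 CPM in the other 10 mice. Its part in the results for the glial genes was not tested.

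Per unit of transcript length, the levels of the 9 glial genes, averaged over all 16 mice, were below those of 12 general neuronal markers. This did not hold within each group: in the vehicle mice Mbp (13.4 ± 3.97 RPKM) and P2ry12 (12.7 ± 3.34 RPKM) were above Rbfox3 (9.70 ± 1.55 RPKM, SD, n = 4 each), and at 7 days Mbp (12.8 RPKM) was about level with the neurofilament gene Nefm (12.5 RPKM). Levels per length are given as RPKM, CPM per kilobase of annotated exon. Over the 16 mice Mbp, which encodes myelin basic protein, averaged 10.6 ± 4.38 RPKM (SD, n = 16) and was above 70.8% of the tested genes. P2ry12, the ADP receptor of resting microglia, averaged 10.1 ± 4.06 RPKM, and Mbp exceeded it in 11 of 16 mice. Slc1a3, the glutamate transporter GLAST of astrocytes, followed at 8.22 ± 2.92 RPKM. Mog, a glycoprotein of the outer myelin surface, averaged 5.34 ± 3.19 RPKM, and Cx3cr1, the microglial receptor for fractalkine, averaged 4.39 ± 1.98 RPKM. Csf1r, the receptor for the colony stimulating factor on which microglia depend, averaged 4.02 ± 1.49 RPKM, and Cx3cr1 exceeded it in 9 of 16 mice. Aldh1l1, a folate enzyme of astrocytes, averaged 2.97 ± 0.939 RPKM, and Aqp4, the water channel of astrocytic endfeet, averaged 1.56 ± 0.921 RPKM. Gfap, the astrocytic intermediate filament, was last at 0.176 ± 0.333 RPKM. In this order the neighbours Mbp and P2ry12, P2ry12 and Slc1a3, Slc1a3 and Mog, Mog and Cx3cr1, Cx3cr1 and Csf1r, Csf1r and Aldh1l1, Aldh1l1 and Aqp4, and Aqp4 and Gfap all overlapped in their ranges over mice. Within each mouse, Aqp4 was above Gfap in 16 of 16.

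**Figure D1:**
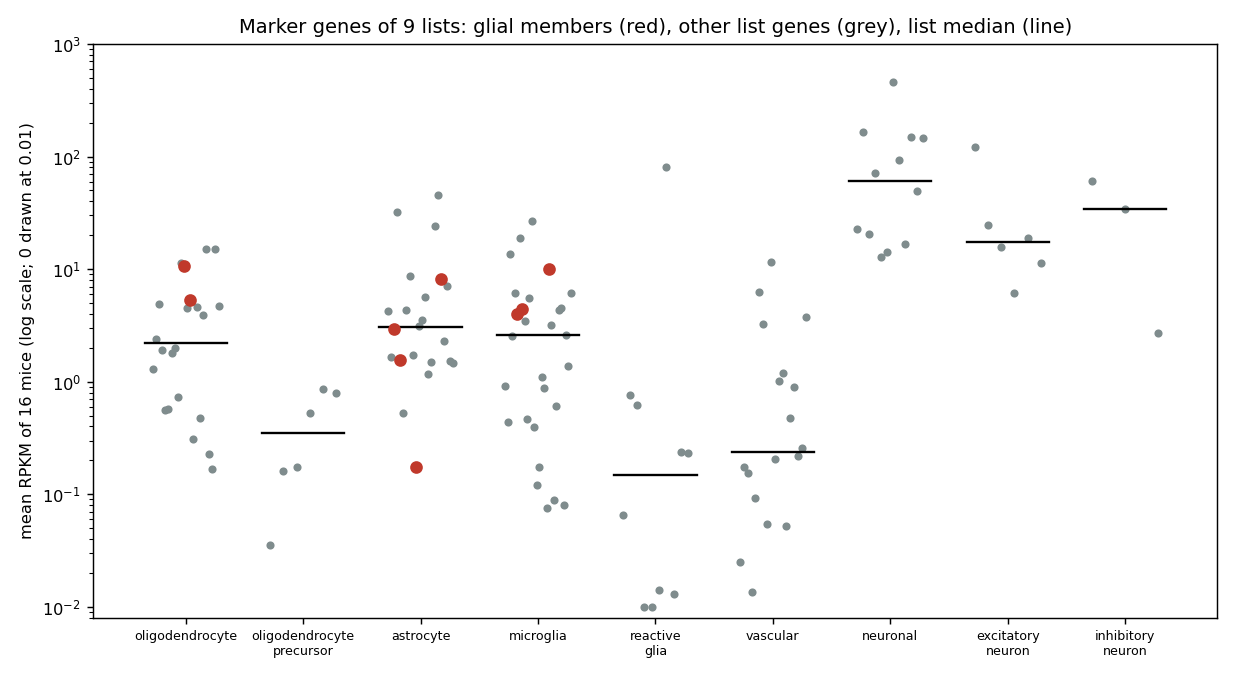
Mean level of each marker gene over the 16 mice in RPKM on a log axis, for 9 lists of cell type markers. Red points are the 9 glial genes studied here, grey points the other genes of each list, and the lines mark list medians, with values of 0 drawn at 0.01. The glial genes lie between 0.176 and 10.6 RPKM and the 12 neuronal markers start at 12.8 RPKM in these means over all groups, while in the vehicle group alone Mbp and P2ry12 were above Rbfox3.

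The lowest of 12 general neuronal markers averaged 12.8 RPKM and the highest, Snap25 of the synaptic release machinery, averaged 464 RPKM. The list medians over genes were 60.4 RPKM for neurons, 3.05 RPKM for the 22 astrocyte markers, 2.57 RPKM for the 28 microglial markers and 2.19 RPKM for the 22 oligodendrocyte markers. Oligodendrocyte precursor, vascular and reactive glia markers had medians of 0.349, 0.238 and 0.149 RPKM. No astrocyte, oligodendrocyte or microglial marker was at 0 in all mice: 19 of 22, 17 of 22 and 21 of 28 respectively had counts in every mouse. Other markers in these lists exceeded the 9 genes. Among astrocyte markers Slc1a2, the glutamate transporter GLT-1, averaged 45.4 RPKM and Aldoc, a glycolytic aldolase, 31.99 RPKM. Among microglial markers Ctss, a lysosomal protease, averaged 18.8 RPKM. Among oligodendrocyte markers Trf, transferrin, averaged 15.0 RPKM.

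In the annotation used for counting, on build GRCm38, Mbp spans chr18:82475146-82585637 on the plus strand and Mog chr17:37010743-37023398 on the minus strand. Neither shares exonic bases with another feature. The Mbp gene unit also contains the longer golli transcripts, which neurons are known to make, and the counts do not separate the transcripts. Counts were taken over exons without regard to strand.

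In the vehicle group Mbp was at 79.8, 159, 116 and 101 CPM in mice 1 to 4. At 24 h it was at 54.5, 69.1, 64.7 and 67.3 CPM, at 48 h at 79.5, 83.5, 54.8 and 73.9 CPM, and at 7 days at 187, 71.9, 106 and 68.0 CPM. All 4 mice at 24 h lay below all 4 vehicle mice, the 48 h mice overlapped vehicle mouse 1, and the 7 days mice held the highest value of the series. The mean was 114 ± 33.6 CPM in vehicle mice (SD, n = 4), and 63.9 ± 6.50, 73.0 ± 12.7 and 108 ± 55.2 CPM in the DOI groups in order of time.

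Mbp fell by 0.83 on the log2 scale at 24 h, a level 1.78-fold lower than in the vehicle group (SE 0.28, adjusted p = 0.0367 with edgeR's quasi-likelihood test and Benjamini-Hochberg adjustment over all tested genes). It was the only one of the 8 tested genes called at 24 h, where 24.2% of all tested genes were called and 10.4% were called lower. It was also the only one of them whose 24 h and vehicle mice did not overlap, a property of 35.7% of all tested genes. The call ended when any of vehicle mice 2, 3 or 4 or any of the 24 h mice 1 to 4 was left out, with log2 fold changes of -0.89 to -0.64 and adjusted p of 0.0526 to 0.135, and it held without vehicle mouse 1 (adjusted p = 0.0343). It also ended with unscaled total counts (adjusted p = 0.0574), with library 2 of each mouse alone (adjusted p = 0.0636) and with the mouse number as a block. At 48 h the log2 fold change of Mbp was -0.64 (SE 0.28, adjusted p = 0.0845), and at 7 days -0.07 (SE 0.27, adjusted p = 0.917).

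Mog was at 2.64, 24.0, 15.1 and 10.4 CPM in the vehicle mice, from 28 to 211 counts. It was at 5.18, 6.55, 7.48 and 4.02 CPM at 24 h, at 5.505, 7.70, 6.08 and 8.38 CPM at 48 h, and at 16.6, 9.97, 9.81 and 6.16 CPM at 7 days. Vehicle mouse 1 was below all DOI mice, while the other 3 vehicle mice were above all mice at 24 h and 48 h. The log2 fold change was -1.16 at 24 h (SE 0.47, adjusted p = 0.0736, edgeR), -0.91 at 48 h (SE 0.46, adjusted p = 0.139) and -0.29 at 7 days (SE 0.45, adjusted p = 0.783). Without vehicle mouse 1 the fit called Mog lower at 24 h (log2 fold change -1.504, adjusted p = 0.0178) and at 48 h (-1.25, adjusted p = 0.0283). That fit called 2576 of 18470 genes at 24 h and 3514 at 48 h. It was the 1 of 8 fits leaving out a mouse that called Mog at each time. In the others the edgeR log2 fold change was as small as -0.70 at 24 h (adjusted p up to 0.309) and -0.45 at 48 h (up to 0.504). The 2 libraries of a mouse differed in Mog by a median of 1.32-fold and in Mbp by a median of 1.09-fold.

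**Figure D2:**
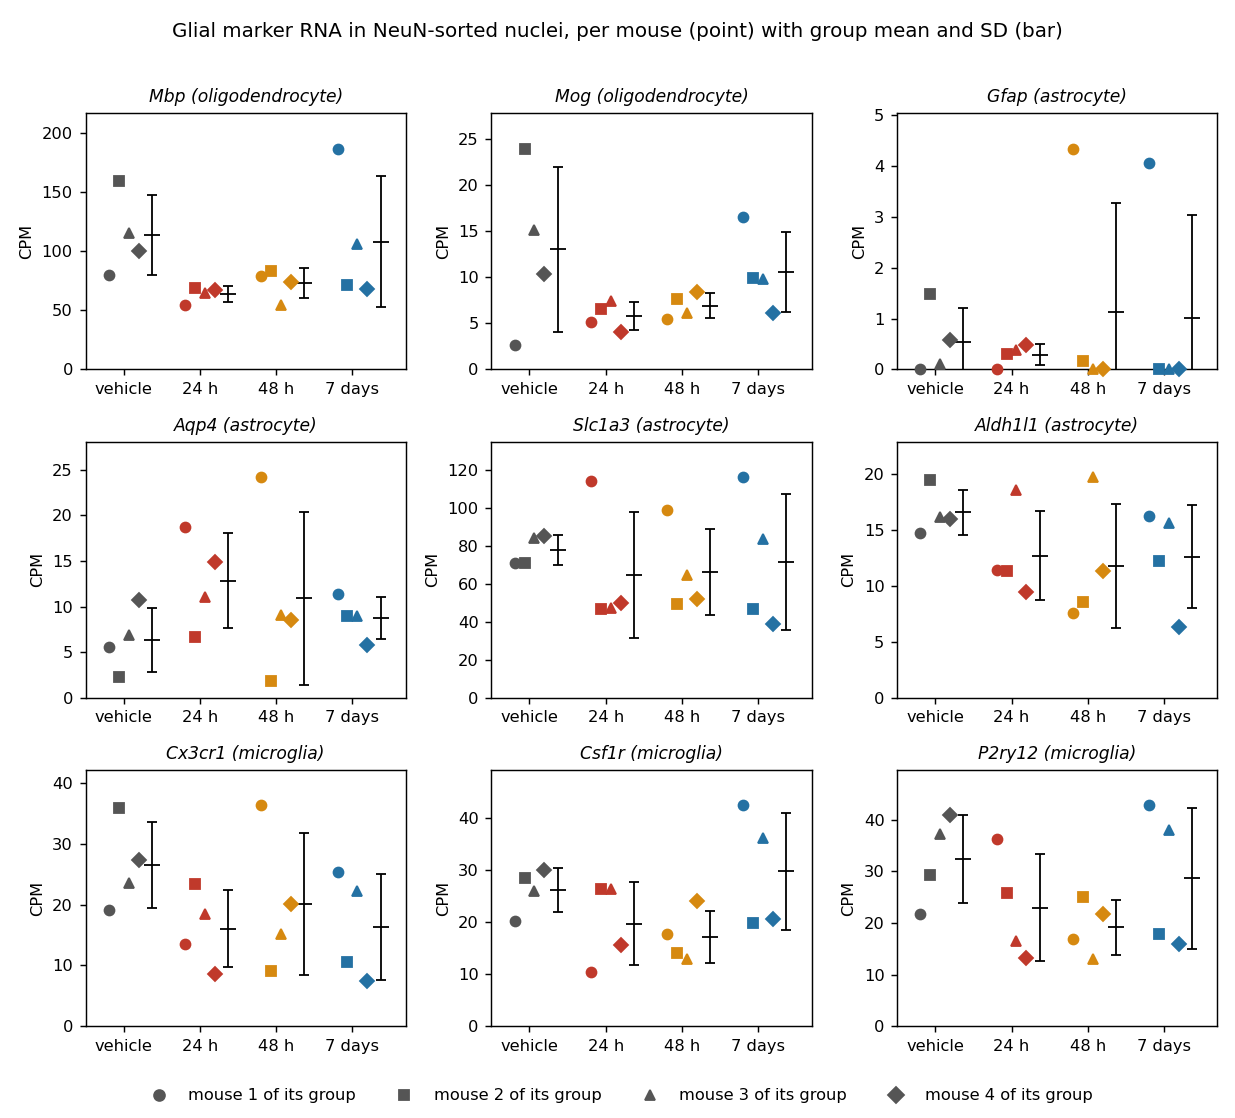
CPM of the 9 glial genes in each of the 16 mice, by group, on linear axes that start at 0. Symbols give the mouse number within its group, and black bars give the group mean and SD (n = 4), with bars below 0 not drawn. Mbp at 24 h (54.5 to 69.1 CPM) lies below all vehicle mice (79.8 to 159 CPM), and Gfap exceeds 4 CPM in 1 mouse at 48 h and in 1 mouse at 7 days.

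Among the astrocyte genes, Gfap lies at chr11:102887336-102900912 and Slc1a3 at chr15:8634124-8710764, both on the minus strand, Aqp4 at chr18:15389496-15410982 on the minus strand, and Aldh1l1 at chr6:90486427-90600203 on the plus strand. Of the exonic bases of Aldh1l1, 13.37% are shared with the features Gm45901 and Gm15756, and reads there are not assigned to either gene by the counter's defaults.

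Gfap was close to the limit of detection. It had 0 counts in 7 of 16 mice and failed the filter on low counts. In the vehicle mice it was at 0, 1.48, 0.10 and 0.58 CPM, and at 24 h at 0, 0.30, 0.38 and 0.47 CPM. At 48 h it was at 4.35 CPM in mouse 1 and at 0.17, 0 and 0 CPM in the others. At 7 days it was at 4.06 CPM in mouse 1 and at 0 CPM in mice 2, 3 and 4. The levels in these 2 mice came from both of their libraries, with 14 and 16 counts at 48 h and 13 and 35 counts at 7 days. No fold change is given for Gfap, because most mice were at or under 3 counts.

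Aqp4 was the one tested gene with a positive log2 fold change at 24 h and 48 h. It was at 5.57, 2.27, 6.88 and 10.7 CPM in the vehicle mice, at 18.7, 6.70, 11.03 and 14.9 CPM at 24 h, at 24.2, 1.84, 9.04 and 8.51 CPM at 48 h, and at 11.3, 8.96, 8.99 and 5.74 CPM at 7 days. The groups overlapped, and 48 h mice 1 and 2 held the highest and the lowest value of all 16 mice. The log2 fold change against vehicle was 1.01 at 24 h (SE 0.55, adjusted p = 0.180, edgeR), 0.78 at 48 h (SE 0.55, adjusted p = 0.286) and 0.46 at 7 days (SE 0.54, adjusted p = 0.694). None of these passed the threshold of 0.05. Without mouse 1 of the 48 h group the 48 h value was 0.01.

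Slc1a3 was even among the vehicle mice, at 70.9, 71.3, 84.4 and 85.4 CPM. At 24 h mouse 1 was at 115 CPM and mice 2 to 4 at 46.7, 47.5 and 50.2 CPM. At 48 h the values were 99.2, 49.7, 64.8 and 51.9 CPM, and at 7 days 116, 46.6, 83.9 and 39.0 CPM. In each DOI group mouse 1 was above all vehicle mice and at least 2 mice were below all of them. The log2 fold changes were -0.27, -0.23 and -0.12 at 24 h, 48 h and 7 days (SE 0.34 each, adjusted p = 0.582, 0.626 and 0.880, edgeR). Without mouse 1 of the 24 h group the 24 h value was -0.69 (adjusted p = 0.127).

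Aldh1l1 was at 14.7, 19.4, 16.1 and 15.96 CPM in the vehicle mice, and at 11.4, 11.3, 18.5 and 9.47 CPM at 24 h. It was at 7.53, 8.54, 19.7 and 11.3 CPM at 48 h and at 16.3, 12.2, 15.6 and 6.30 CPM at 7 days. In both the 24 h and the 48 h group mouse 3 was within or above the vehicle range and the other 3 mice were below it. The log2 fold changes were -0.38, -0.49 and -0.39 (SE 0.33, 0.34 and 0.33, adjusted p = 0.415, 0.273 and 0.583, edgeR). The 4 astrocyte genes thus did not share 1 order of mice: 48 h mouse 1 was highest of its group for Gfap, Aqp4 and Slc1a3 and lowest for Aldh1l1. Of the 18 other tested astrocyte markers, 9 had their highest 48 h value in that mouse.

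The microglial gene Cx3cr1 spans chr9:119901616-120069879 and P2ry12 chr3:59216272-59262871, both on the minus strand, and Csf1r spans chr18:61100598-61132149 on the plus strand. P2ry12 lies inside Med12l, a Mediator kinase module subunit gene on the opposite strand, and strand was not used in counting. Med12l rose by 0.85 at 24 h and by 1.08 at 48 h (log2, SE 0.22 each, adjusted p = 0.0128 and 0.00316, edgeR), opposite in sign to P2ry12. Csf1r shares 15.12% of its exonic bases with Hmgxb3 on the other strand, which rose by 0.60 at 24 h (SE 0.20, adjusted p = 0.0412). Cx3cr1 shares 1.73% of its exonic bases with Gm33858. The part of these neighbours in the counts was not tested.

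Cx3cr1 was at 19.2, 35.9, 23.6 and 27.3 CPM in the vehicle mice, at 13.6, 23.4, 18.5 and 8.64 CPM at 24 h, at 36.4, 9.04, 15.1 and 20.1 CPM at 48 h, and at 25.4, 10.5, 22.2 and 7.42 CPM at 7 days. All groups overlapped, with the highest value in 48 h mouse 1. The log2 fold changes were -0.73, -0.39 and -0.69 at 24 h, 48 h and 7 days (SE 0.42 each, adjusted p = 0.212, 0.496 and 0.425, edgeR).

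Csf1r was at 20.3, 28.5, 25.9 and 30.1 CPM in the vehicle mice and at 10.5, 26.3, 26.4 and 15.6 CPM at 24 h. It was at 17.7, 14.1, 12.9 and 24.1 CPM at 48 h and at 42.5, 19.8, 36.2 and 20.7 CPM at 7 days. Only mouse 4 of the 48 h group reached the vehicle range, and 7 days mice 1 and 3 were above it. The log2 fold changes against vehicle were -0.41 at 24 h, -0.61 at 48 h and 0.19 at 7 days (SE 0.31, 0.32 and 0.31, adjusted p = 0.35, 0.149 and 0.793, edgeR).

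P2ry12 was at 21.81, 29.34, 37.14 and 40.97 CPM in the vehicle mice, at 36.25, 25.75, 16.48 and 13.14 CPM at 24 h, at 16.80, 25.11, 13.04 and 21.80 CPM at 48 h, and at 42.77, 17.82, 37.95 and 15.95 CPM at 7 days. At 48 h mice 1, 3 and 4 were below all vehicle mice and mouse 2 was not. The log2 fold changes were -0.50, -0.75 and -0.17 (SE 0.35, 0.36 and 0.35, adjusted p = 0.310, 0.114 and 0.838, edgeR).

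**Figure D3:**
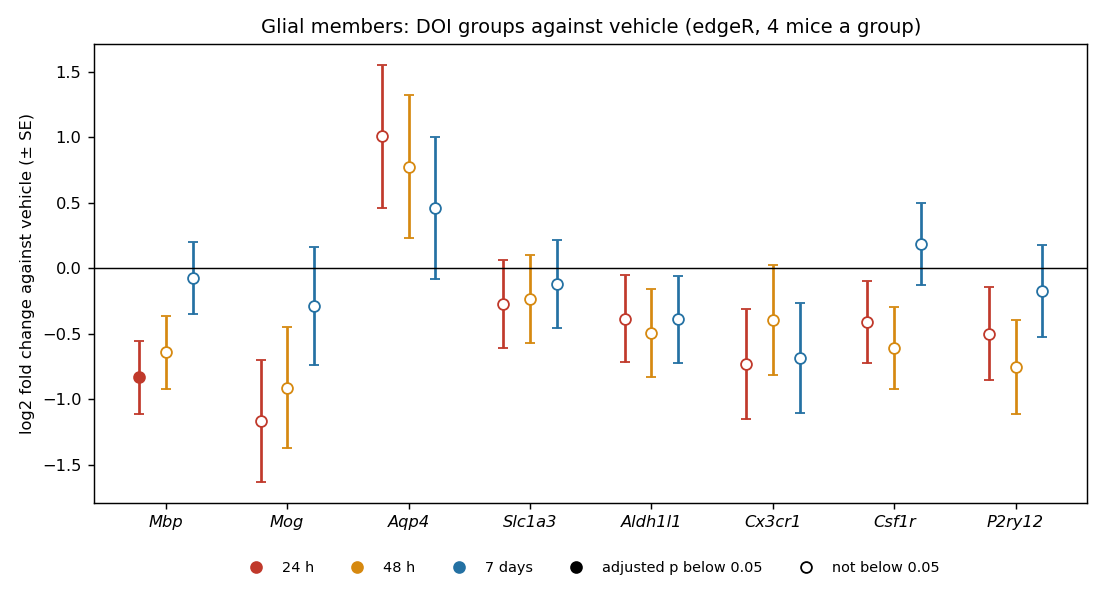
Log2 fold change of the 8 tested glial genes in each DOI group against vehicle, with the standard error, from edgeR over 4 mice a group. Filled points have an adjusted p below 0.05 and open points do not. Mbp at 24 h (-0.83) is the only filled point, and Aqp4 is the only gene above 0 at all 3 times.

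Across the tested glial genes 7 of 8 had a negative log2 fold change at 24 h and 7 of 8 at 48 h, Aqp4 being the exception at both times. Over all 17941 tested genes 9254 were positive at 24 h and 9109 at 48 h. The other markers of these cells were more mixed. At 24 h and 48 h, 8 and 6 of 18 oligodendrocyte, 8 and 9 of 18 astrocyte and 9 and 8 of 22 microglial markers were positive. The median log2 fold change of the 8 glial genes was -0.46 at 24 h and -0.55 at 48 h, beside 0.03 and 0.02 over all tested genes, and -0.15 at 7 days beside 0.02. The 24 h and 48 h comparisons share the vehicle mice. Relative to unscaled total counts, the median of all genes shifted to 0.14 at 24 h and 0.12 at 48 h, and the 8 signs at these 2 times were the same under both scalings and under a further one, DESeq2-type RLE factors.

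At 48 h edgeR called 0 of the 8 genes, where 30.1% of all tested genes were called, and 0 of the 8 had no overlap with the vehicle mice, where 38.1% of all tested genes had none. Mbp and P2ry12 had an unadjusted p below 0.05 at 48 h. DESeq2 called 0 of the 9 genes at 48 h, and limma voom with quality weights called 3, namely Mbp, Csf1r and P2ry12, all lower. At 24 h DESeq2 called Mbp, and limma voom with quality weights called Mbp, Slc1a3 and P2ry12, all lower. Over all genes limma voom called 7784 of 17941 at 48 h and 7236 of 17941 at 24 h. DESeq2 called 6318 of 23401 genes at 48 h and 5298 of 23401 at 24 h. At 7 days edgeR called 0 of the 8 genes (0 at an unadjusted p below 0.05), and neither DESeq2 nor limma voom called any. In that comparison edgeR called 0 of all 17941 genes (0%, with 3012 at an unadjusted p below 0.05) and DESeq2 called 758 genes, and 5.85% of tested genes but 0 of the 8 had no overlap with vehicle. Leaving out 7 days mouse 1 or mouse 3 gave 1342 and 1160 called genes, again with 0 of the 8.

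Between the DOI groups no glial gene was called by edgeR, DESeq2 or limma voom. For 48 h against 24 h edgeR called 0 of the 8 and 0 (0%) of all genes, with 0 and 338 at an unadjusted p below 0.05. For 7 days against 48 h it called 0 of the 8 and 0 (0%) of all genes, with 1 and 2959 at an unadjusted p below 0.05. That 1 glial gene was Csf1r, with a log2 fold change of 0.80 (SE 0.32, adjusted p = 0.231). For 7 days against 24 h edgeR called 0 of the 8 and 0.00557% of all genes, and Mbp alone had an unadjusted p below 0.05 (log2 fold change 0.76, SE 0.28, adjusted p = 0.231). Testing the 4 groups jointly, edgeR called 0 of the 8 and 18.8% of all tested genes. Mbp again had the smallest adjusted p there (0.0698), and it was the 1 glial gene with an unadjusted p below 0.05. DESeq2 called 1 glial gene in that test and limma voom 3, beside 5135 of 22025 and 7121 of 17941 genes.

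The 9 genes are a small part of each class, so the other markers of the same cells were counted in the same fit. Of 18 other tested oligodendrocyte markers, 2 rose and 1 fell at 24 h, and 0 rose and 4 fell at 48 h. Over all tested genes 13.8% rose and 10.4% fell at 24 h, and 16.8% rose and 13.3% fell at 48 h. Cldn11 and Myrf rose at 24 h, and Cnp, Olig1, Hapln2 and Trf fell at 48 h. Trf fell at both times (log2 fold change -1.22 and -1.32, SE 0.43 each, adjusted p = 0.0450 and 0.0277). Cldn11, the claudin of myelin tight junctions, rose at 24 h (1.80, SE 0.63, adjusted p = 0.0445). Hapln2, a link protein of the perinodal matrix, fell at 48 h (-2.48, SE 0.81, adjusted p = 0.0286). The median log2 fold change of this list was -0.03 at 24 h and -0.37 at 48 h.

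Of 18 other tested astrocyte markers, 1 rose and 0 fell at 24 h, and 2 rose and 0 fell at 48 h. Fgfr3, a fibroblast growth factor receptor, rose at 24 h (0.77, SE 0.26, adjusted p = 0.0389), and Slc4a4, a sodium bicarbonate cotransporter, rose at 48 h together with Cldn10 (Slc4a4 1.11, SE 0.36, adjusted p = 0.0262). Slc1a2 was at 501 ± 22.4 CPM in vehicle and 704 ± 140 CPM at 24 h (log2 fold change 0.49, adjusted p = 0.103), and Aldoc had a log2 fold change of -0.57 (adjusted p = 0.146). The list median was -0.05 at 24 h and -0.15 at 48 h.

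Of 22 other tested microglial markers, 1 rose and 0 fell at 24 h, and 1 rose and 1 fell at 48 h. Siglech, a sialic acid binding lectin, rose at 24 h (0.83, SE 0.29, adjusted p = 0.0419), and Sall1, a transcription factor of microglial identity, rose at 48 h (2.84, SE 0.70, adjusted p = 0.00725), from 0.755 to 1.27 CPM in vehicle to between 1.78 and 18.4 CPM in the 48 h mice. P2ry13, a purine receptor, was the 1 that fell at 48 h (-1.40, SE 0.49, adjusted p = 0.0395). Ctss had a log2 fold change of -0.12 at 24 h (adjusted p = 0.743). The list median was -0.13 at 24 h and -0.18 at 48 h.

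Of 5 tested oligodendrocyte precursor markers 1 rose at each time, Cspg4, the NG2 proteoglycan (1.97 at 24 h, SE 0.66, adjusted p = 0.0367, and 2.25 at 48 h, SE 0.66, adjusted p = 0.0173). Neu4 and Pdgfra, the most abundant of that list, averaged 0.864 and 0.785 RPKM. Of 10 reactive glia genes 4 could be tested and 0 were called by edgeR at any time (0 at an unadjusted p below 0.05 in each comparison with vehicle). Lcn2 and Cxcl10, which reactive glia switch on, were at 0 in every mouse. Serpina3n, a serine protease inhibitor also made by neurons, averaged 81.3 RPKM. Of 11 tested vascular markers 3 rose at 24 h and 2 at 48 h, and none fell. Those that rose were Ly6c1, Slco1a4 and Vtn at 24 h and Abcc9 and Vtn at 48 h. Ly6c1, an endothelial surface protein, was at 0.380 to 8.76 CPM in the 24 h mice and at 0 to 0.584 CPM in vehicle. Cldn5, the claudin of brain endothelium, was at 0 in 10 of 16 mice and at most at 0.609 CPM. Itm2a and Egfl7, the most abundant of the vascular list, averaged 11.5 and 6.26 RPKM. The part of these cells in the results for the glial genes was not tested. Called genes of a list other than the one with the largest change, and Cldn5, were named after their values were seen.

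Rbfox3, the gene of the sorting antigen, was at 56.4 ± 9.01 CPM in vehicle mice, and at 98.8 ± 12.5, 99.4 ± 10.9 and 78.6 ± 24.8 CPM in the DOI groups in order of time. It rose at 24 h and 48 h (log2 fold change 0.81 and 0.82, SE 0.20 each, adjusted p = 0.0103 and 0.00775, edgeR), and no 24 h or 48 h mouse overlapped the vehicle mice. Of the 12 neuronal markers 3 rose and 1 fell at 24 h (Rbfox3, Stmn2 and Thy1 up, Snap25 down) and 4 rose and 1 fell at 48 h, with Map2 in addition. Over all tested genes 24.2% were called at 24 h and 30.1% at 48 h, so the list as a whole is not set apart by these counts. Snap25 fell at both times (-0.58 and -0.62, SE 0.20 each, adjusted p = 0.0395 and 0.0257), and Thy1 rose (1.88 and 2.03, SE 0.31 each, adjusted p = 0.00196 and 0.00153). Of 6 excitatory neuron markers 2 rose at each time and 0 fell, led by the kinase gene Camk2a (2.96 at both times). Of 3 inhibitory neuron markers Slc32a1, the vesicular GABA transporter, rose at both times, Gad1 fell at both and Gad2 fell at 24 h.

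For each class the summed RPKM of its members was set against the summed RPKM of the 12 neuronal markers. Microglial members came to 1.79% ± 0.430 of the neuronal sum in vehicle (SD, n = 4), and to 1.36% ± 0.541, 1.28% ± 0.292 and 1.70% ± 0.760 in the DOI groups in order of time. Oligodendrocyte members came to 1.63% ± 0.695, 0.907% ± 0.0834, 1.10% ± 0.322 and 1.57% ± 0.537. Astrocyte members came to 1.08% ± 0.152, 1.10% ± 0.606, 1.04% ± 0.334 and 1.07% ± 0.414. Each DOI group overlapped the vehicle group in each class, and no mouse exceeded 2.58%. Among the DOI groups, the oligodendrocyte ratios at 24 h (0.818% to 1.00%) lay below those at 7 days (1.13% to 2.22%) without overlap. These ratios have no test, and since nuclear RNA differs between genes and cell types they are not shares of nuclei. With Rbfox3 alone as the reference the groups stood further apart: the oligodendrocyte members were at 215% of Rbfox3 in vehicle and at 65.9%, 74.8% and 161% in the DOI groups in order of time. The astrocyte members, level against the neuronal sum, were at 146% of Rbfox3 in vehicle and at 72.6%, 75.4% and 109% in the DOI groups. The microglial members were at 239% in vehicle and at 95.2%, 89.2% and 173%. Rbfox3 itself rose at 24 h and 48 h, as given above. Snap25, the most abundant marker in the neuronal sum (464 RPKM over all mice), fell at both times. In CPM the neuronal sum averaged 7609 ± 174 in vehicle, and 6818 ± 1043, 6805 ± 1098 and 6845 ± 1035 in the DOI groups. The part of these shifts in the ratios was not tested.

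**Figure D4:**
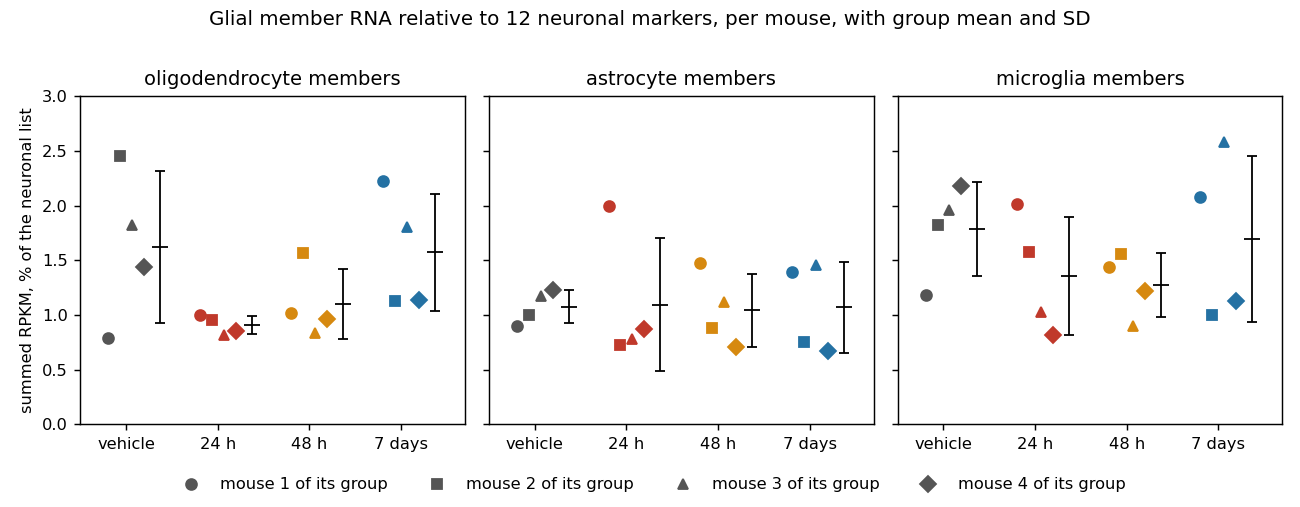
Summed RPKM of the glial genes of each class in percent of the summed RPKM of 12 neuronal markers, for each of the 16 mice, with the group mean and SD (n = 4). Symbols give the mouse number within its group. All values lie between 0.674% and 2.58%, and in each class every DOI group overlaps the vehicle group.

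The mice at 7 days did not form 1 group for these genes. Mice 1 and 3 held the 2 highest 7 days values of 7 of the 8 tested genes, the exception being Mog, where mouse 2 (9.97 CPM) was just above mouse 3 (9.81 CPM). For Aqp4 the order of mice 3 and 2 was as close (8.99 and 8.96 CPM) and was the opposite in library 1, so the count of 7 includes a near tie. Over all tested genes mice 1 and 3 were the upper pair in 32.3% and the lower pair in 32.8%. These are the same 2 mice that lay with the vehicle mice on the first principal component and had low counts on the 18S feature. Among the other markers mice 1 and 3 were the upper pair in 11 of 18 astrocyte genes (61.1%), 8 of 18 oligodendrocyte genes (44.4%) and 7 of 22 microglial genes (31.8%), the last close to the share of all genes. Among the 12 neuronal markers they were the upper pair in 2 and the lower pair in 6. For 4 of the 9 glial genes the highest value of all 16 mice was that of 7 days mouse 1, namely Mbp (187 CPM), Slc1a3 (116 CPM), Csf1r (42.5 CPM) and P2ry12 (42.8 CPM). No label separates the 4 mice at 7 days, so this order is a description without a test.

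For the most counted member of each class, the genes with the most similar course over the 16 mice were sought among 12721 genes outside the marker lists, by the root mean square difference of centred log2 CPM. For Mbp these were Ift122, Rasa3 and Mief2 at 0.24, 0.25 and 0.26, where the median gene was at 0.60. For Slc1a3 they were Simc1, Heatr3 and Gm20604 at 0.24, 0.25 and 0.28, beside a median of 0.63. For P2ry12 they were 4933439C10Rik, Itga8 and Fbxo21 at 0.26 each, beside a median of 0.67. The points share libraries and depth, and the likeness is given as a description.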

How the data were processed

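Raw counts per gene were deposited. The authors counted exonic reads by Ensembl gene ID on GRCm38 with featureCounts 2.0.0, and the command recorded in the headers sets nothing for overlapping features, pairing, strand or multiple alignments. The aligner of the RNA reads is not given in the sources used here. Per the labels' protocols, Nextera XT libraries were built from SMART-seq2 cDNA. In 3 mice (24 h mouse 1, 48 h mouse 2, 7 days mouse 2) the header carries another mouse number, and the labels' numbers were used.

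Both libraries of each mouse were added together. Genes passing edgeR's filterByExpr (17941) were scaled with TMM factors and fitted with the quasi-likelihood test (edgeR 4.0.16, R 4.3.3) in 1 fit of 4 groups, with Benjamini-Hochberg adjustment over all genes and a threshold of 0.05. On simulated counts for 24 h against vehicle, the fit recovered 157 of 200 genes changed 3-fold among 17941, with 9 false calls. Every simulated gene had the same dispersion of 0.1, and smaller changes were not simulated. The recovery therefore does not give the power for the glial genes. Floors cover counting error only. Alternatives used DESeq2 1.42.0, limma 3.58.1, other scalings and filters, single libraries, thinned counts, a replicate block and leaving out each mouse. The members and marker lists were chosen with earlier results of these data known. Named genes were all members, the 2 most abundant other genes of each list, the called gene with the largest change of each list at 24 h and 48 h, and the nearest genes by course; some of these are not reported here.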

Additional observations from a re-analysis of the deposited data

Results flagged for a closer look

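A sample far from the other 3 of its group was looked for with Dixon's criterion at the 95% level in 48 sets of 4 mice, 9 genes and 3 class ratios in 4 groups each. It marked 4 sets, where chance alone marks about 5% of sets without ties. That rate does not apply to the 2 Gfap sets, which hold 2 or 3 zeros. Gfap was at 4.35 CPM in 48 h mouse 1 and at no more than 0.17 CPM in the other 3. Gfap was at 4.06 CPM in 7 days mouse 1 and at 0 CPM in the other 3. Slc1a3 was at 115 CPM in 24 h mouse 1 and at 46.7 to 50.2 CPM in the other 3. The astrocyte member sum of that mouse was 2.00% of the neuronal sum against 0.724% to 0.872%. Slc1a3 made up 13.4 of the 18.95 RPKM of that sum, so the Slc1a3 set and this ratio set are not separate.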

How the results depend on the processing

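Of the alternatives, 120 of 147 counts of called glial genes, 447 of 480 log2 fold changes and 80 of 96 ratios gave the call and sign reported, or for ratios moved less than 1 SD between mice. At 24 h, where 1 gene was called, limma voom with quality weights called 3, no filter on low counts 2, and total counts only, library 2 alone and the replicate block 0 each. Over all genes limma voom called 7236 of 17941 there, and the fit without a filter 4746 of 36503. At 48 h, where 0 were called, limma voom called 3, and the 32 libraries with duplicateCorrelation, no filter and only the 2 groups compared called 2 each. In that order these settings called 7784 of 17941, 5902 of 17941, 5649 of 36503 and 6824 of 16424 genes. In the test of any difference (0 called), limma voom called 3, and DESeq2, duplicateCorrelation, no filter and library 1 alone called 1 each. Leaving out 1 mouse gave from 0 to 2 called genes for 24 h and from 0 to 1 for 48 h as well as for any difference. The cause was not tested.

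The replicate block ended the Mbp call at 24 h (log2 fold change -0.82, adjusted p = 0.0582). Mice that share a number are different animals. By the labels' numbers, the deviations of such mice correlated between -0.28 and 0.24. No correlation of differently numbered mice is given for comparison, and some headers carry another number. Whether mice with the same number shared a step of handling was therefore not tested.

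With Rbfox3 alone as reference the ratios in vehicle, 24 h, 48 h and 7 days were 215%, 65.9%, 74.8% and 161% for oligodendrocyte, 146%, 72.6%, 75.4% and 109% for astrocyte and 239%, 95.2%, 89.2% and 173% for microglial genes. With counts not divided by length, the oligodendrocyte ratio at 24 h was 1.03%, the astrocyte ratio in vehicle 1.34%, and the microglial ratio 1.12% in vehicle and 0.834% at 48 h.

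Signs turned at 7 days against vehicle for 5 uncalled genes. With duplicateCorrelation Mog was at 0.18. Leaving out each mouse in turn, Mbp ranged from -0.47 to 0.13 (above 0 without vehicle mouse 2 or 7 days mouse 2 or 4) and Mog from -0.63 to 0.18 (above 0 without vehicle mouse 2). Slc1a3 ranged from -0.46 to 0.075 (above 0 without 7 days mouse 2 or 4), Csf1r from -0.034 to 0.33 (below 0 without 7 days mouse 1) and P2ry12 from -0.43 to 0.020 (above 0 without 7 days mouse 4). Depth limits Gfap most, with 0 to 48 counts per mouse.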
